A study of Homo sapiens with 60 samples.

Results

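A set of 43 genes of DNA replication and of the passage from G1 into S phase was followed in A549 cells, a permanent line grown from a human lung adenocarcinoma, 24 h after addition of vehicle or of decoctions from herbs used in Korean medicine, each made with hot water. The genes were taken by symbol, matched to the Ensembl identifiers of a table of 60675 genes, and all 43 were found there. All 43 also passed the filter on low counts, which kept 17269 genes for testing. Each of 6 extracts was given at 3 doses (high, medium, low) with 3 libraries apiece, and 3 libraries came from vehicle. Among single herbs, Bupleuri Radix, Cimicifugae Rhizoma and Citri Unshius Pericarpium were used at 500, 100 and 20 µg/mL, and the processed root of aconite, Aconiti Lateralis Radix Preparata, at 360, 72 and 14.4 µg/mL. The mixtures Yijung-tang and Banhasasim-tang were given at 500, 100 and 20 µg/mL, and Bojungikgi-tang, a further mixture, had 1 library at each dose. Extracts are called here by the first word of their names. All cells were of the same line and no genetic change was made in any group. Vehicle was DMSO, entered as 0.1% in the sample labels and as 2% in the design text, and the labels name no DMSO for extract samples, so that an effect of DMSO and one of extract cannot be told apart in comparisons with vehicle. All sample titles, vehicle included, carry the same label, Second BatchB. Sample codes put Citri with Cimicifugae, Bupleuri with Aconiti, and Yijung with Banhasasim, while vehicle carried a code of its own. The labels do not say what the codes stand for. A difference between codes and an effect of extract cannot be told apart against vehicle either. Nothing states that the 3 libraries of a group were separate cultures, so the p-values measure the spread between these libraries, which may be technical.

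Before a cell copies its DNA, the origin recognition complex with CDC6 and CDT1 loads the MCM2 to MCM7 helicase onto origins in G1. In S phase CDC45 and the GINS complex join the helicase, MCM10 helps to start it, primase and DNA polymerase alpha lay down primers, and polymerases delta and epsilon extend them on the sliding clamp PCNA. E2F transcription factors, released from RB proteins once cyclin-dependent kinases act, switch on many of these genes at the G1/S boundary, and tumour lines in culture express them strongly.

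Total counts ran from 17793680 to 30188212 per library. Of 10 markers of the line listed for a check, 9 passed the filter in these libraries, and SFTPB had at most 6 counts. The lowest of the 9 were NAPSA (5 to 45 counts per library) and EPCAM (61 to 190). Of 10 markers of blood, endothelium and fibroblasts, 7 did not pass and had at most 8 counts in any library, while CD68 (27 to 406 counts), COL1A1 (261 to 1284) and COL3A1 (21 to 63) passed. Mitochondrially encoded genes took 16.5% to 18.9% of counts in Aconiti high dose and 13.5% to 15.2% in Aconiti medium, against 7.91% to 8.54% in vehicle. Citri medium replicate 1 stood apart in its balance of long to short transcripts (mean log2 CPM of genes over 6000 bp less that of genes under 1500 bp), at 3.35, where the other 2 libraries of its group and the vehicle libraries lay between 4.04 and 4.16. Strand use in the counting is not given in the sources used here, and 12 of the 43 genes, MCM2, FEN1, GINS2, PRIM1 and CCNE2 among them, overlap a tested gene on the other strand, so part of their counts could come from that gene.

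E2F proteins bind DNA words of the form TTT, 2 letters each C or G, then CGC, and the promoters of these genes were searched for TTTCCCGC, TTTCGCGC, TTTGCCGC and TTTGGCGC on both strands. In RefSeq's promoter table (build GRCh38.p14), 38 of the 43 genes had an entry, and 16 of them (42.1%) held such a word in the 250 bases before the start. Over all 27305 promoters of the table the share was 2.79%, and over the 11782 promoters of tested genes 4.27%. In the last 150 bases the shares were 39.5%, 1.82% and 2.74%. The sequences shown are those of LIG1, called in 3 comparisons of a dose with vehicle, and of MCM6 and DTL, which had the smallest p in Aconiti high dose among the genes with a word called in 1 such comparison, and the capitals mark the words. The MCM6 promoter is printed over 250 bases (chr2:135876444-135876693, minus strand), since 4 words sit there as overlapping pairs on the 2 strands, first letters 152 and 148 and again 90 and 86 bases before the start. The words of LIG1 (chr19:48170440-48170469, minus strand) and DTL (chr1:212035718-212035747, plus strand) are printed with their neighbours over 30 bases, because the GENCODE 29 model places an upstream start there and counts 250 and 195 bases of these windows as part of the gene.
MCM6: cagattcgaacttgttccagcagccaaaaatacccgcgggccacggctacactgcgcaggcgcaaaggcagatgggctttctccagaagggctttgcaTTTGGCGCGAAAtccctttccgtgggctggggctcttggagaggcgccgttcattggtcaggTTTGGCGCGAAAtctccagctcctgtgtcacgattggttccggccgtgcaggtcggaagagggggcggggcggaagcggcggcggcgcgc
LIG1: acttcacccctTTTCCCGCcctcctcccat
DTL: caatcagagagcgtgacgtcagTTTGGCGC
A word is a match of letters and was not tested as a binding site. Among members called lower in Aconiti high dose, the result described next, 11 of 26 promoters (42.3%) held a word, and among members not called there 5 of 12 (41.7%) did.

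Levels are given as CPM, counts scaled to a common library total, on TMM effective library sizes, and between genes they are compared only after division by exon length. Per kilobase of exon, vehicle levels spanned a wide range. PCNA, the sliding clamp, had the highest value at 206 ± 7.58 CPM per kilobase (SD, n = 3). It was followed by TK1, thymidine kinase of the salvage route, at 80.8 ± 1.67 and by the helicase subunit MCM7 at 74.6 ± 1.56. RRM2, the regulated subunit of ribonucleotide reductase, had 63.3 ± 0.0325, and its partner RRM1 had 45.6 ± 0.560. At the low end were E2F2 with 2.82 ± 0.0864 and CCNE2, cyclin E2, with 1.86 ± 0.0488. These CPM of CCNE2 rested on 161 to 217 counts per vehicle library and on 58 to 89 counts per library in Aconiti high dose.

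**Figure D1:**
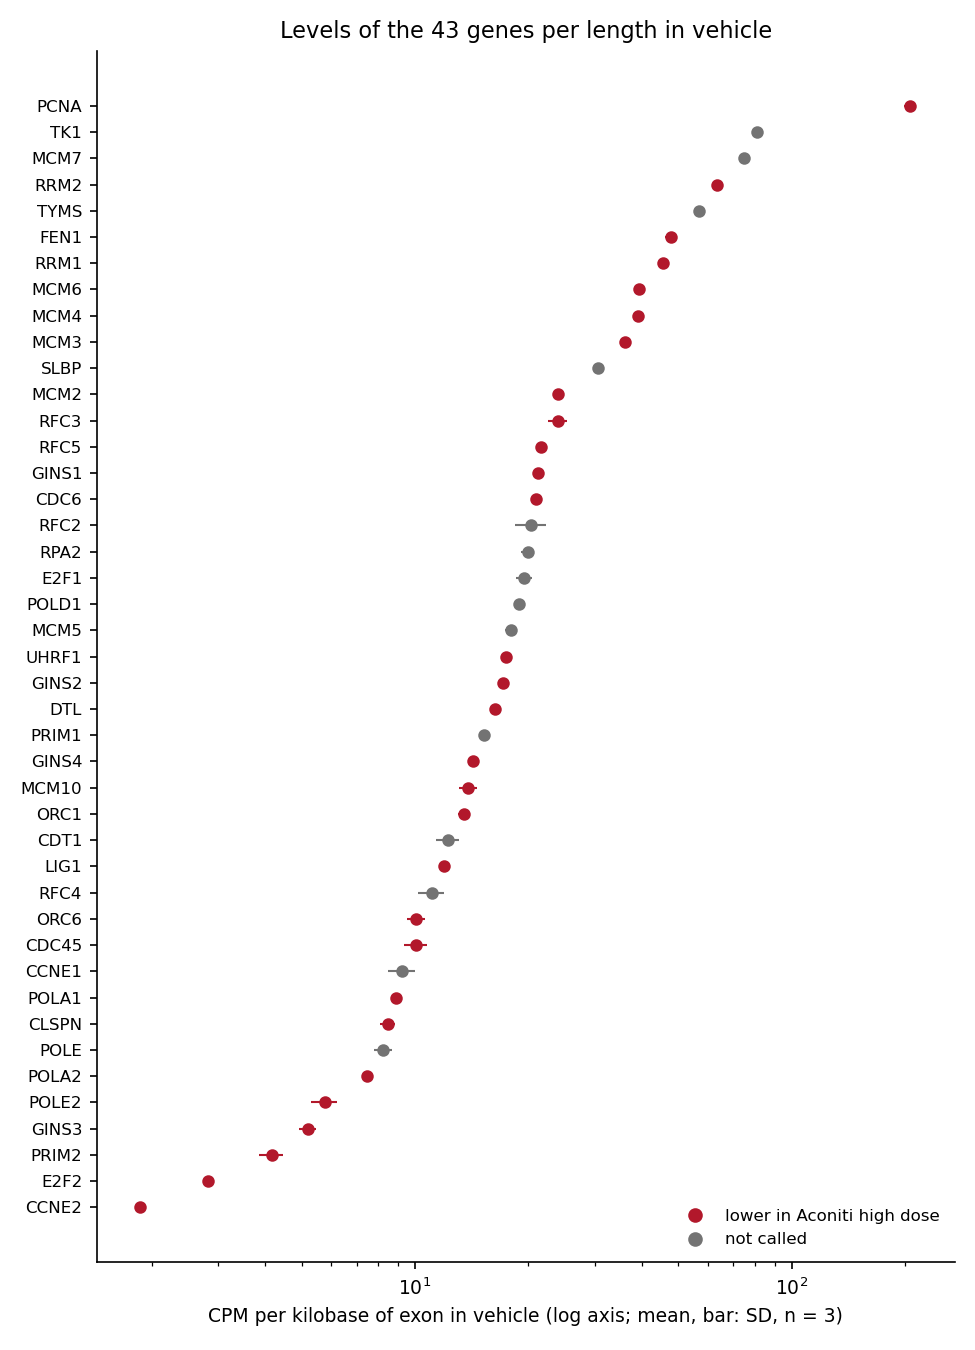
Mean level of each of the 43 genes in the 3 vehicle libraries, in CPM per kilobase of exon on a log axis with the SD as a bar; red points were lower in Aconiti high dose and grey points were not called. Called and uncalled genes are both found among high levels (PCNA and TK1), and the 5 lowest levels belong to called genes.

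The clearest pattern was in Aconiti high dose, where the replication genes were lower than in vehicle. With edgeR's quasi-likelihood test and Benjamini-Hochberg adjustment over all tested genes (threshold 0.05), 29 of 43 were lower and 0 were higher. Over all tested genes 15.7% were lower at that threshold and 32.7% changed in either direction. The median log2 fold of the 43 genes was -0.35, that of all tested genes was -0.01, and 39 of the 43 folds lay below 0. In 31 of the 43 all 3 Aconiti libraries lay below all 3 vehicle libraries, which held for 20.7% of all tested genes. RNA was taken from whole cultures, so fewer cells in S phase and less RNA of these genes per cell cannot be told apart.

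**Figure D2:**
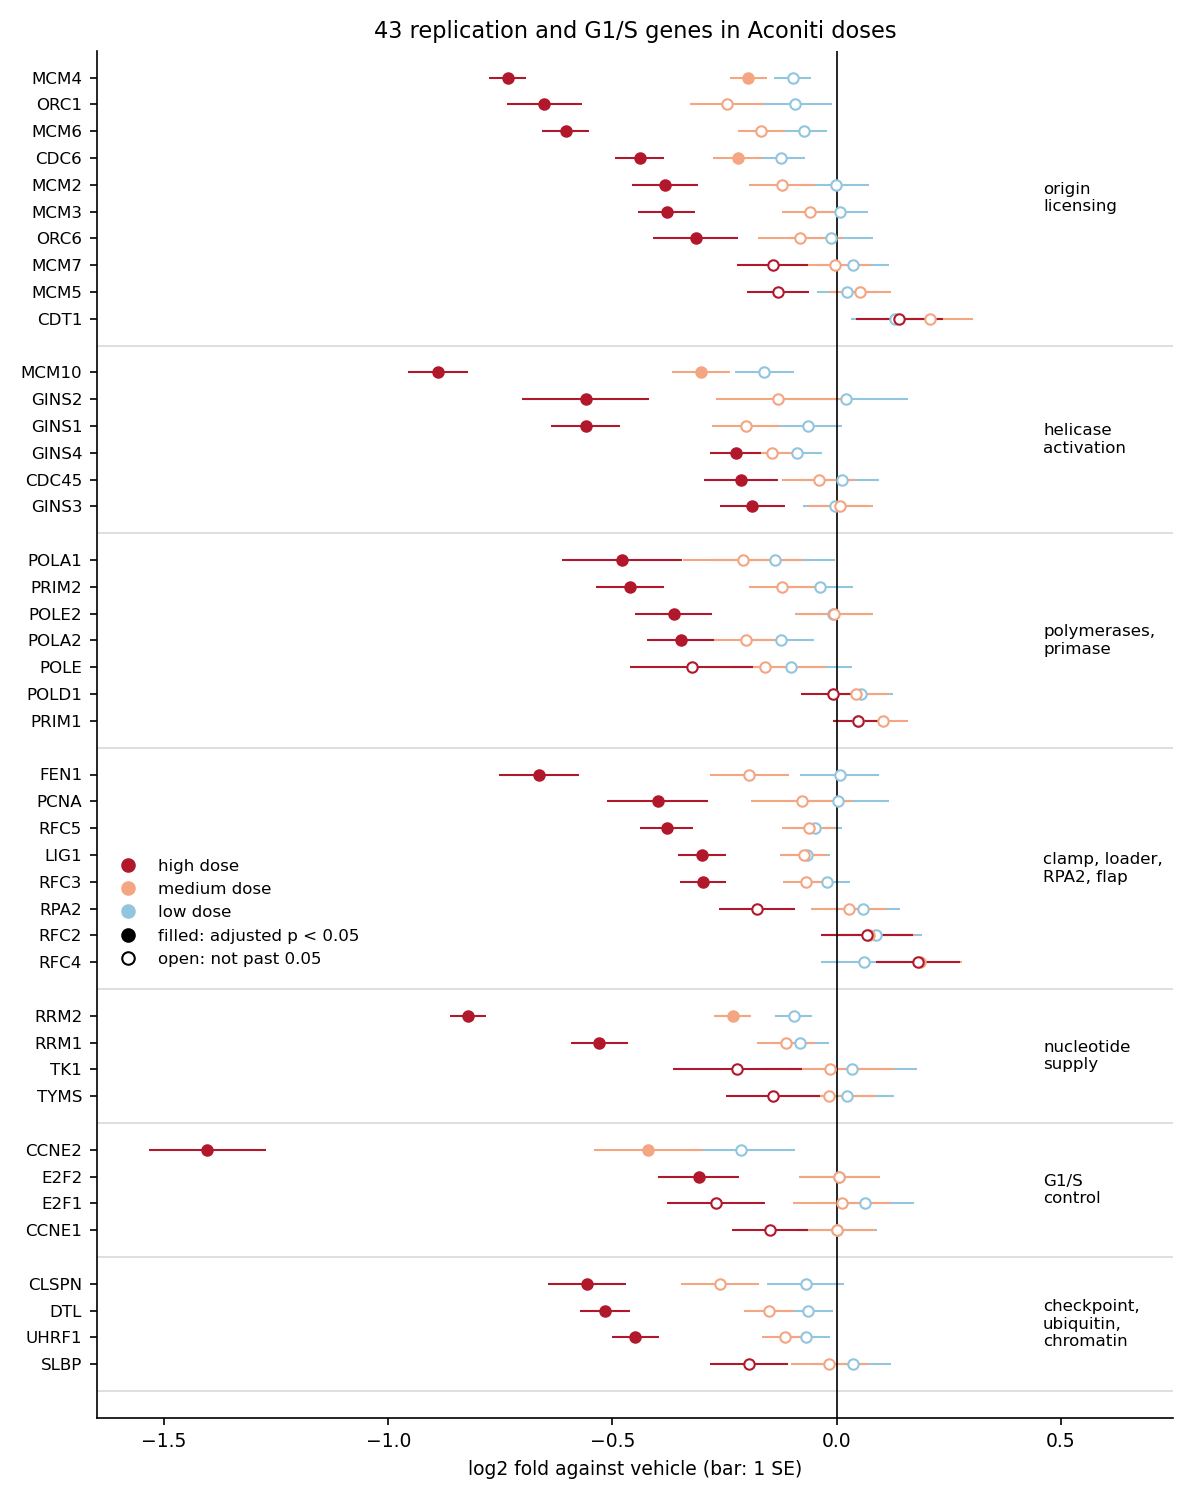
Log2 fold of each gene against vehicle in the 3 Aconiti doses, ordered by role, with 1 SE as a bar; filled points passed an adjusted p of 0.05. High-dose points (red) lie left of medium (orange) and low (blue) points for most genes, and the leftmost is CCNE2 at -1.40.

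Of 10 origin licensing genes 7 were lower at Aconiti high dose. MCM4, a subunit of the MCM helicase, had 276, 269 and 272 CPM in the vehicle libraries and 169, 163 and 159 CPM in Aconiti high dose. The groups did not overlap, and the log2 fold was -0.73 ± 0.04 (SE, adjusted p = 1.59e-18). Of the other helicase subunits, MCM6 fell by 0.60, MCM2 by 0.38 and MCM3 by 0.38 on the log2 scale, whereas MCM5 (-0.13) and MCM7 (-0.14) did not pass the test. ORC1, the largest subunit of the origin recognition complex, fell by 0.65, ORC6 by 0.31 and the loader CDC6 by 0.44. CDT1, the loader's partner, had 39.8, 38.4 and 44.0 CPM in vehicle and 36.7, 53.6 and 44.1 CPM in Aconiti high dose, so that its groups overlapped (log2 fold 0.14 ± 0.10, adjusted p = 0.28).

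All 6 genes of helicase activation were lower than in vehicle, while 4 were lower than in Aconiti low dose and 3 than in Bupleuri high dose. MCM10, on chr10:13161554-13211104, had 79.1, 75.9 and 71.1 CPM in vehicle and 42.1, 39.9 and 40.2 CPM in Aconiti high dose. Every treated library was far under every vehicle library, and the log2 fold was -0.89 ± 0.07 (adjusted p = 1.35e-14). Of the GINS complex, GINS1 and GINS2 fell by 0.56 each on the log2 scale, GINS4 by 0.23 and GINS3 by 0.19, and CDC45 fell by 0.21. The last 2 were near the threshold (adjusted p = 0.041 for GINS3 and 0.0416 for CDC45) and each passed it under 8 of 15 other settings.

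Among polymerases and primase 4 of 7 were lower. PRIM2, the large primase subunit (chr6:57314805-57646849), had 18.5, 18.7 and 21.1 CPM in vehicle and 14.3, 14.4 and 13.6 CPM in Aconiti high dose. Its groups stood apart with a log2 fold of -0.46 ± 0.07 (adjusted p = 4.05e-06). PRIM1, the catalytic primase subunit, had 36.4, 37.6 and 37.2 CPM in vehicle and 36.8, 38.6 and 39.2 in Aconiti high dose, and its fold of 0.05 ± 0.06 did not pass. The subunits of polymerase alpha, which works with primase, fell by 0.48 (POLA1) and 0.35 (POLA2). POLE2, the second subunit of polymerase epsilon, fell by 0.36. The catalytic subunit POLE had a fold of -0.32 ± 0.14 (adjusted p = 0.0656) and POLD1, that of polymerase delta, one of -0.01 ± 0.07, and neither passed.

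Clamp, clamp loader and processing of the lagging strand gave 5 lower members of 8. FEN1, the nuclease that trims flaps of Okazaki fragments (chr11:61792637-61797244), had 118, 115 and 123 CPM in vehicle and 67.6, 85.8 and 71.4 CPM in Aconiti high dose. Its high-dose libraries spread more than those of vehicle but did not reach them, with a log2 fold of -0.66 ± 0.09 (adjusted p = 8.95e-08). PCNA had 298, 294 and 315 CPM in vehicle and 198, 249 and 242 CPM in Aconiti high dose, a fold of -0.40 ± 0.11 (adjusted p = 0.0054). RFC5 fell by 0.38 and RFC3 by 0.30, both of the loader that opens the clamp, while their partners RFC2 (0.07) and RFC4 (0.18) did not pass. LIG1, the ligase that joins Okazaki fragments, fell by 0.30, and RPA2 of the single-strand binding protein had a fold of -0.18 that did not pass (adjusted p = 0.104).

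Of 4 genes of nucleotide supply 2 were lower, and all 4 folds lay below 0. RRM2 (chr2:10120698-10131419) had 337 CPM in each vehicle library and 186, 197 and 190 CPM in Aconiti high dose. The spread within each group was small beside the gap, and its adjusted p of 4.26e-20 was the smallest among the 43 genes (log2 fold -0.82 ± 0.04). RRM1 fell by 0.53. TK1 had 150, 148 and 154 CPM in vehicle and 100, 163 and 123 CPM in Aconiti high dose, so the groups overlapped (-0.22 ± 0.14, adjusted p = 0.245), and TYMS, thymidylate synthase, had a fold of -0.14 ± 0.11 that did not pass.

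Of the G1/S regulators, CCNE2 and E2F2 were lower while CCNE1 and E2F1 did not pass. CCNE2 had 8.15, 8.01 and 8.43 CPM in vehicle and 3.25, 2.51 and 3.50 CPM in Aconiti high dose. No value of one group came near the other, and its log2 fold of -1.40 ± 0.13 was the largest in size of the 43 (adjusted p = 8.98e-12). CCNE1, cyclin E1, had 21.4, 24.8 and 24.5 CPM in vehicle and 18.9, 22.9 and 21.9 in Aconiti high dose, a fold of -0.15 ± 0.08 (adjusted p = 0.176). E2F2 fell by 0.31, and E2F1 had a fold of -0.27 ± 0.11 (adjusted p = 0.0553).

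DTL, which directs CDT1 to destruction, CLSPN (claspin, an adaptor of the replication checkpoint) and UHRF1, which recruits DNA methyltransferase to new DNA, were 3 lower members of 4 in the remaining role. DTL (chr1:212035553-212107400) had 81.0, 81.4 and 77.9 CPM in vehicle and 58.7, 52.7 and 56.6 CPM in Aconiti high dose, with no overlap (log2 fold -0.52 ± 0.06, adjusted p = 7.3e-10). CLSPN fell by 0.56 and UHRF1 by 0.45. SLBP, the histone mRNA binding protein, had a fold of -0.20 ± 0.09 (adjusted p = 0.0776).

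The summed CPM of the 43 genes was 4087 ± 31.4 in vehicle and 3125 ± 200.3 in Aconiti high dose (SD, n = 3). Under 15 other settings, single-library omissions included, 26 to 38 members were called, and 22 of the 29 were called under every one. ORC6, CDC45, GINS3, GINS4, POLA1, POLE2 and PCNA missed the threshold under at least 1 setting. Scaling by total counts alone, added after the data had been seen, moved the median of all genes by -0.16 and that of the members to -0.50, and split all called genes into 1675 higher and 5033 lower, where TMM gave 2942 and 2710. The 3 Aconiti high libraries differed in their balance of long to short transcripts, 4.08 in replicate 1 against 3.79 and 3.80, and PCNA, TK1 and GINS2 were lowest in replicate 1. With that balance as a covariate 37 of the 43 were called. With mitochondrial genes removed before scaling and testing (17254 genes tested) 29 were called. TMM already trims genes of extreme fold or level, so this setting could change little. An effect of the mitochondrial share on the count was not tested.

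**Figure D3:**
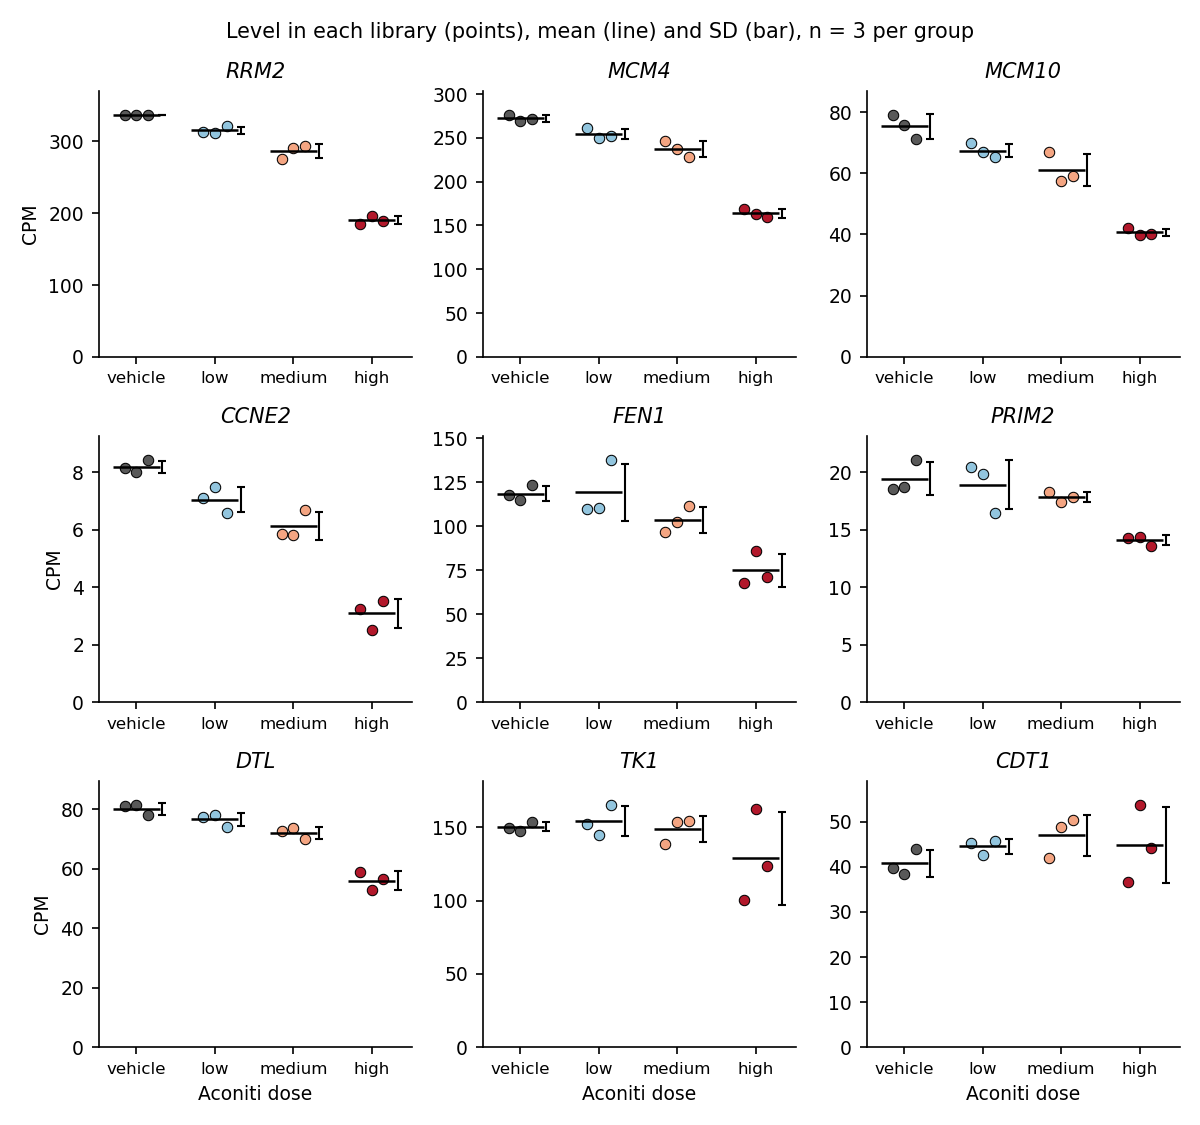
CPM in each vehicle library and in each library of the 3 Aconiti doses for 7 genes named by rule and for TK1 and CDT1, which did not pass and were chosen after their values were seen; points are libraries, lines means and bars SD (n = 3). In the first 7 panels all high-dose points lie below all vehicle points, and in the TK1 and CDT1 panels they overlap.

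The low dose of the same extract shares its sample code with the high dose, so this pair holds the code constant. In Aconiti high against low dose 29 of 43 members were lower and 0 higher, where 11.3% of all tested genes were lower and 22.7% changed in either direction. The median fold of the members was -0.31 beside -0.01 for all tested genes, and in 28 of 43 no high-dose library reached a low-dose library (15.1% of all genes). CCNE2 fell by 1.19, MCM10 by 0.73, RRM2 by 0.73, FEN1 by 0.67 and MCM4 by 0.64 on the log2 scale. A fit of these 6 libraries alone called 18 members.

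Of the 29 genes lower against vehicle, 26 were also lower against low dose, and E2F1, RPA2 and SLBP were called against low dose only. These comparisons share the high-dose libraries. Of the 29 members lower against low dose, 18 were called under every one of 16 other settings. E2F1 and RPA2 were called there under 11 of the 16 settings and SLBP under 7. E2F1 had 45.5, 51.0 and 56.5 CPM in Aconiti low and 34.6, 47.2 and 39.6 in Aconiti high, which overlap, and its fold of -0.33 ± 0.11 passed (adjusted p = 0.0228).

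The medium dose lay between. Against vehicle 5 of 43 members were lower (0.666% of all tested genes lower, 2.31% in either direction), with a median fold of -0.08. These 5 were CCNE2, MCM10, RRM2, CDC6 and MCM4. RRM2 had 276, 291 and 294 CPM at the medium dose, all under the 337 CPM of vehicle and all above the high dose (log2 fold -0.23 ± 0.04, adjusted p = 2.43e-04). MCM10 had 67.1, 57.4 and 59.0 CPM, below all vehicle libraries (-0.30 ± 0.07, adjusted p = 0.00388). CDC6 had 102, 96.9 and 101 CPM beside 115, 117 and 117 in vehicle (-0.22 ± 0.05, adjusted p = 0.0148). CCNE2, at 5.86, 5.82 and 6.70 CPM, was at the threshold (-0.42 ± 0.12, adjusted p = 0.05 after rounding).

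The medium-dose count depended on single libraries. It was 2 without vehicle replicate 1 and 3 without vehicle replicate 2, vehicle replicate 3 or Aconiti medium replicate 2. It was 20 with scaling by total counts alone.

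From medium to high dose 22 members were lower and 0 higher, against 6.21% of all tested genes lower and 12.5% in either direction, and all 43 folds lay below 0. In 36 of 43 members, and in 31.5% of all tested genes, the mean CPM fell from low to medium and from medium to high dose, by any amount. In this comparison RRM2 fell by 0.59 and RFC5, with 62.0, 70.1 and 69.4 CPM at medium and 53.4, 54.8 and 53.6 at high dose, by 0.32 (SE 0.06, adjusted p = 1.24e-04). A fit of the 6 libraries alone called 9. At the low dose 0 of 43 passed edgeR's test against vehicle (unadjusted p was under 0.05 for 4, and the count by DESeq2 was 0), and the folds ran from -0.21 to 0.13.

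Bupleuri shares its sample code with Aconiti, and the high doses of both were compared. In Aconiti 28 members were lower than in Bupleuri and 0 higher, against 11.8% lower and 23.1% in either direction over all tested genes. Of these 28 members, 19 were called under every one of 16 other settings. UHRF1 had 94.1, 94.5 and 91.9 CPM in Bupleuri high and 67.0, 67.8 and 62.8 in Aconiti high, which did not overlap (-0.51 ± 0.05, adjusted p = 2.52e-10). RRM2 had 315, 299 and 305 CPM in Bupleuri high, above all Aconiti high libraries (-0.68 ± 0.04, adjusted p = 2.18e-17). FEN1 had 132, 118 and 122 CPM there (-0.73 ± 0.09, adjusted p = 1.56e-08).

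Whether the change from low to high dose differed between Aconiti and Yijung was tested as a difference of changes, which uses no vehicle library. The Aconiti change less the Yijung change was below 0 for 21 called members and above 0 for 0, against 5.06% of all tested genes below 0 and 9.33% in either direction. PRIM1, one of the 21, did not move in Aconiti (0.00 ± 0.06) and was called through its rise in Yijung. RRM2 went from 350, 331 and 329 CPM in Yijung low to 348, 382 and 345 in Yijung high, and from 313, 311 and 321 CPM in Aconiti low to 186, 197 and 190 in Aconiti high. The difference of the log2 changes was -0.82 ± 0.06 (adjusted p = 1.25e-13). For CCNE2 it was -1.06 ± 0.18 (adjusted p = 3.42e-05) and for MCM10 -0.71 ± 0.09 (adjusted p = 2.92e-07). The doses were not the same in µg/mL. Without the low-count filter 12 members were called, and a fit of these 12 libraries alone called 9.

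**Figure D4:**
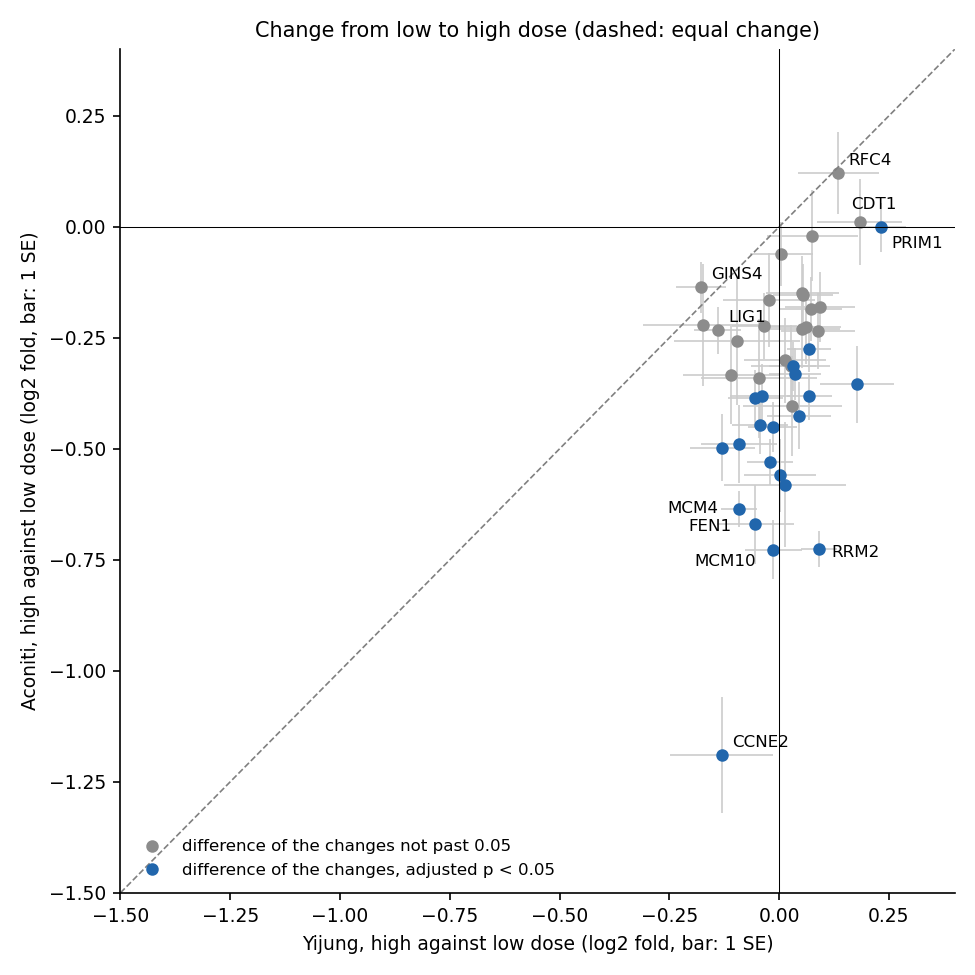
Log2 change from low to high dose in Yijung (x axis) and in Aconiti (y axis) for the 43 genes, with 1 SE as bars and a dashed line of equal change; blue points differ between extracts at an adjusted p under 0.05. The 21 blue points lie below the dashed line, CCNE2 at -1.19 in Aconiti, and PRIM1 stands at 0.23 in Yijung and 0.00 in Aconiti.

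Against vehicle, low dose, Bupleuri high dose and in the difference of changes together, 20 members were lower throughout. They were ORC1, CDC6, MCM2, MCM3, MCM4 and MCM6 of licensing, MCM10, GINS1 and GINS2 of activation, PRIM2 and POLE2, RFC3, RFC5 and FEN1, RRM1 and RRM2, CCNE2, and DTL, CLSPN and UHRF1. These comparisons share the Aconiti high libraries, and the list is given as a description. Over all tested genes 15.7%, 11.3%, 11.8% and 5.06% were lower in these comparisons, in the order named. The share lower in all of them was not counted and cannot exceed 5.06%.

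In the other 5 extracts few members passed. Over the 15 comparisons of their doses with vehicle, median folds of the 43 genes lay between -0.06 and 0.04 and single folds between -0.34 and 0.28. All 15 share the 3 vehicle libraries. In 12 of the 15 no member was called by edgeR, and there 0.0% to 0.712% of all tested genes were called. A count of 0 in 43 is near that share.

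**Figure D5:**
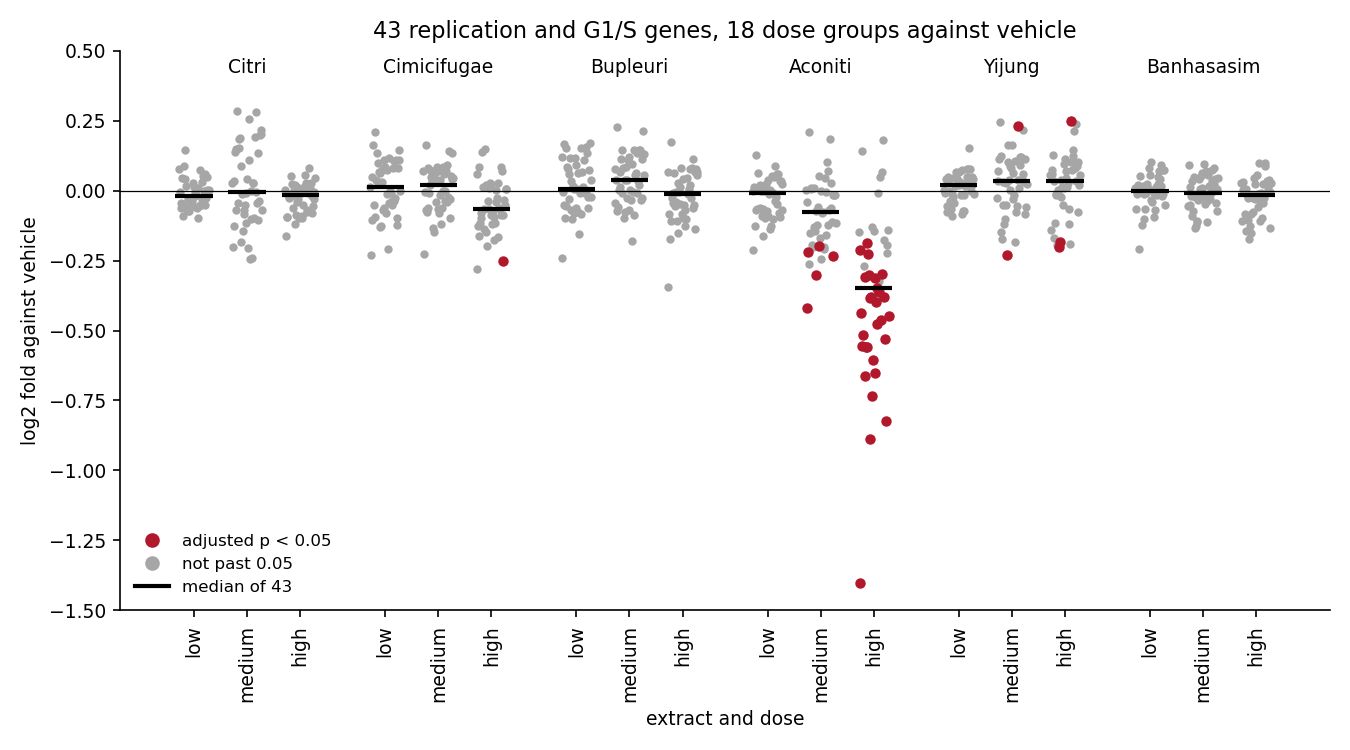
Log2 folds of the 43 genes against vehicle in each of 18 dose groups, with the median as a black line and genes past an adjusted p of 0.05 in red. Medians stay between -0.06 and 0.04 outside Aconiti and reach -0.35 in Aconiti high dose.

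Cimicifugae high dose had 1 member called, RRM2, where 1.97% of all tested genes were called. It had 282, 283 and 284 CPM, below the 337 CPM of each vehicle library (log2 fold -0.25 ± 0.04, adjusted p = 8.57e-05). It was also lower than in Citri high dose of the same sample code, which had 320, 312 and 325 CPM (-0.17 ± 0.04, adjusted p = 0.0255), the only member called there beside 0.689% of all genes. That call against Citri was lost without any 1 of the 6 libraries. RRM2 was at 309, 307 and 313 CPM in Cimicifugae low dose, and high against low dose called 0 members with edgeR (4 with an unadjusted p under 0.05, 1 with DESeq2, and 1.34% of all genes).

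Yijung high dose had 3 members called (7.09% of all tested genes) and Yijung medium 2 (7.85%). PRIM1 (chr12:56731596-56752373) had 43.6, 47.1 and 41.4 CPM at high and 46.0, 44.4 and 40.1 CPM at medium dose, all above the 36.4 to 37.6 CPM of vehicle. It rose by 0.25 ± 0.05 (adjusted p = 0.0017) and 0.23 ± 0.05 (adjusted p = 0.00336) on the log2 scale. PRIM1 was higher too in Yijung high against low dose (0.23 ± 0.05, adjusted p = 0.00437), the only member called beside 4.93% of all genes, and against Banhasasim high dose of the same code (0.23 ± 0.05, adjusted p = 0.00674), likewise the only one beside 4.79%. It lost these last 2 calls without Yijung high replicate 2, which had its highest value. The count against low dose was 2 without Yijung high replicate 1 or Yijung low replicate 3, and that against Banhasasim was 2 without Yijung high replicate 3.

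LIG1 was lower in Yijung, with 70.0, 68.7 and 68.9 CPM at high and 67.8, 66.9 and 66.4 CPM at medium dose beside 79.5, 76.7 and 79.6 in vehicle. The groups did not overlap, and the folds against vehicle were -0.19 ± 0.05 (adjusted p = 0.023) and -0.23 ± 0.05 (adjusted p = 0.00288). LIG1 had 72.6, 71.4 and 78.5 CPM in Banhasasim high dose of the same code. Yijung high against Banhasasim high did not pass for LIG1 (-0.10 ± 0.05, adjusted p = 0.334). GINS4 was lower at Yijung high dose than in vehicle, with 70.4, 66.6 and 66.4 CPM beside 79.7, 78.7 and 75.3 (-0.20 ± 0.06, adjusted p = 0.0193). Banhasasim high dose, of the same code as Yijung, had 72.0, 69.6 and 68.8 CPM of GINS4. The fold between these groups did not pass (-0.05 ± 0.06, adjusted p = 0.701). Neither LIG1 nor GINS4 was called in Yijung high against low dose. The count at Yijung high dose against vehicle was 1 without vehicle replicate 1 or without Yijung high replicate 2. Without the low-count filter 0 members were called at either dose, and a fit of only the libraries compared called 0 at high and 1, LIG1, at medium dose.

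In the remaining groups 0 of the 43 genes passed edgeR's test. For Citri 0.0463%, 0.0174% and 0.00579% of all tested genes were called at high, medium and low dose, and 1, 12 and 0 members had an unadjusted p under 0.05. The 12 in Citri medium came with the library that stood apart: its replicate 1 had 482 CPM of PCNA and 75.8 of E2F1, where replicates 2 and 3 had 304 and 298 of PCNA and 51.9 and 50.4 of E2F1. The number of members called by adjusted p in Citri medium was 0 with all libraries. It was 10 without its replicate 2, 4 without its replicate 3 and 0 without its replicate 1. Cimicifugae medium and low had 0.0347% and 0.0116% of genes called, with 3 and 2 members under 0.05 unadjusted.

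Bupleuri high, medium and low dose had 0.712%, 0.0% and 0.0% of genes called, with 4, 2 and 2 members under 0.05 unadjusted. CCNE2 had the largest fold in Bupleuri high, -0.34 ± 0.12 (adjusted p = 0.217). For Banhasasim the shares were 0.185%, 0.0% and 0.0%, with 1, 0 and 1 members, for Yijung low 0.0116% with 0 members and for Aconiti low 0.0695% with 4. DESeq2 called 2 members in Bupleuri high and 0 in the other groups without an edgeR call. High against low dose called 0 members in Citri, Bupleuri and Banhasasim (0.0232%, 0.353% and 0.127% of all genes, with 0, 2 and 0 members under 0.05 unadjusted and 0 by DESeq2), and Yijung high against medium called 0 (1.08% of genes, 1 member, 0 by DESeq2).

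Levels of 6 genes of different roles were followed in every group. MCM2 means lay between 110.7 CPM (Citri medium) and 126 CPM (Yijung medium) outside Aconiti high and medium. Aconiti high and medium had 90.0 ± 10.3 and 108 ± 3.46 CPM (SD, n = 3). The Citri medium mean rests on its replicate 1 (96.8 CPM beside 117 and 118), and the Yijung medium mean on its replicate 1 (142 CPM beside 120 and 115). For CDC6 the highest mean was 126 ± 10.2 CPM in Yijung medium, with 136 in replicate 1 beside 125 and 116. The lowest CDC6 mean was 85.8 ± 2.20 CPM in Aconiti high, followed by 99.8 ± 2.58 in Aconiti medium and 103 ± 1.93 in Bupleuri high. Aconiti high was below its neighbours in that order by more than their spread.

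PCNA means ran from 229 ± 27.6 CPM in Aconiti high to 361 ± 105 in Citri medium, and E2F1 means from 40.5 ± 6.37 to 59.3 ± 14.3 CPM in the same groups, where the highest value of each rests on Citri medium replicate 1. RRM2 had 191 ± 5.68 CPM in Aconiti high, then 283 ± 1.40 in Cimicifugae high and 287 ± 9.84 in Aconiti medium, whose libraries overlap, and up to 358 ± 20.8 in Yijung high. CCNE2 had 3.09 ± 0.514 CPM in Aconiti high, 6.12 ± 0.499 in Aconiti medium, 6.45 ± 0.686 in Bupleuri high and at most 8.72 ± 0.239 in Banhasasim medium.

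Bojungikgi had 1 library per dose, so no test was made and differences are of log2(CPM + 1) from the vehicle mean. The median difference of the 43 genes was -0.04 at high, -0.04 at medium and -0.03 at low dose, with a range from -0.21 (GINS2) to 0.11 (POLE) at high dose. At high dose 23 of 43 members were below the range of the 3 vehicle libraries (30.7% of all tested genes), 16 within it and 4 above it (25.7%). CCNE2 had 8.44, 9.33 and 9.41 CPM at high, medium and low dose beside 8.02 to 8.44 in vehicle on the same scaling, and RRM2 had 324, 324 and 321 CPM beside 337.

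Other genes of the pathway were read from lists set beside the members. Of 18 further licensing and initiation genes, 11 were lower and 0 higher in Aconiti high dose against vehicle, with a median fold of -0.26. For this and the next lists the shares of all tested genes were 15.7% lower and 32.7% in either direction. DBF4, the activator of the CDC7 kinase that fires origins, fell by 0.33, TICRR (treslin) by 0.86, MCM8 by 0.48 and TOPBP1 by 0.55 on the log2 scale. Of 18 genes of synthesis and chromatin assembly, 10 were lower and 2 higher. The histone chaperone ASF1B fell by 0.73 on the log2 scale, CHAF1A of chromatin assembly factor 1 by 0.37 and the nuclease DNA2 by 0.62. The 2 that were higher, POLD2 of polymerase delta (0.32 ± 0.10, adjusted p = 0.0135) and RNASEH2A of ribonuclease H2 (0.39 ± 0.15, adjusted p = 0.0366), are named after their values were seen.

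Among 10 further G1/S cyclins, kinases and partners, 7 were lower and 0 higher. SKP2, which marks the inhibitor p27 for destruction, went from 39.2 ± 1.63 CPM in vehicle to 22.5 ± 1.32 in Aconiti high (SD, n = 3), and the phosphatase CDC25A from 31.6 ± 2.34 to 17.9 ± 0.441. CCNA2, cyclin A2, fell by 0.68 and CDK2 by 0.34. Of 11 further E2F and RB family genes 6 were lower and 2 higher. E2F8, a repressor of the family, fell by 1.32 and TFDP1, an E2F partner, by 0.35, while E2F4 rose by 0.39 and E2F5 by 0.44.

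Of 7 CDK inhibitors 5 were tested, CDKN2A and CDKN2B having at most 3 and 1 counts in any library. CDKN1A, which encodes p21, rose from 103 ± 5.66 CPM to 190.5 ± 12.9 in Aconiti high (log2 fold 0.89 ± 0.09, adjusted p = 3.98e-11). CDKN2C fell by 1.13 and CDKN2D by 0.59.

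A list of 25 mitosis genes was set beside the members for comparison. In Aconiti high dose 21 of 25 were lower and 0 higher, with a median fold of -0.55, where the members had 29 of 43 and -0.35. AURKA, the spindle kinase Aurora A, fell by 0.65, NUSAP1 by 0.68, DLGAP5 by 0.84 and the kinesin KIF20A by 1.00. Against low dose 21 of 25 were lower as well (11.3% of all tested genes), and in Aconiti medium 3 of 25 were lower against vehicle (0.666%). The difference between this list and the members was not tested.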

How the data were processed

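Values are the authors' deposited expected counts per gene. Per the submitters' processing notes, RSEM 1.3.3 and STAR 2.7.3a were used on GRCh38, beside Trim Galore 0.6.5 and FastQC 0.11.9. The annotation release and the strand setting are not given in the sources used here. Of 269 sample columns 60 were used, and 209 were not analysed here, among them those of ethanol extracts and of the wortmannin control. Symbols, exon lengths and gene positions come from GENCODE 29, which held 57055 of the 60675 identifiers.

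Expected counts were rounded to whole numbers. Genes kept by filterByExpr (17269) were fitted in edgeR 4.0.16 (R 4.3.3, limma 3.58.1) with TMM scaling and the quasi-likelihood test over 57 libraries in 19 groups, which share 1 estimate of the spread (38 residual degrees of freedom, biological coefficient of variation 10.1%). P-values were adjusted by Benjamini-Hochberg over all tested genes within each of 30 comparisons. The SE of a log2 fold is its size divided by the square root of F. Alternatives were RLE size factors, no low-count filter, the replicate number as a block, length balance as a covariate, Citri medium replicate 1 left out, mitochondrial genes removed, total counts alone, only the libraries compared, DESeq2 1.42.0 (with its own independent filter), each replicate left out, and, for comparisons without vehicle, a replicate block in each sample code. The low-count filter was set again wherever libraries were left out, so the genes tested changed too. The steps were tested on simulated data. Bojungikgi was scaled with the other libraries and described without a test.

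The members and lists were chosen with earlier results of these data known. Values per library are given, in comparisons with at least 3 members called, for the called member with the smallest adjusted p in each role and the 4 with the largest fold. Members called in a comparison with 1 or 2 calls are named, as are 6 members in every group and at most 4 genes of each other list. Other members are named by role, and TK1, CDT1, CCNE1, PRIM1 in Aconiti and PCNA in Citri medium were shown by library after their values were seen. The values of 1 gene of these lists are not reported here.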

Additional observations from a re-analysis of the deposited data

Results flagged for a closer look

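The change from low to high dose differed between Aconiti and Yijung by a test of the difference itself in edgeR for 21 of the 43 genes, with the Aconiti change less the Yijung change below 0 in each. For PRIM1 the change was 0.00 in Aconiti and 0.23 in Yijung. Among the genes followed by library or in every group, the difference of log2 changes was -1.06 for CCNE2, -0.82 for RRM2, -0.71 for MCM10, -0.62 for FEN1, -0.54 for MCM4, -0.47 for PRIM2, -0.44 for DTL, -0.35 for CDC6 and -0.34 for MCM2. PRIM1 was the only one of the 21 that was not lower in Aconiti high dose against vehicle. The extracts belong to different sample codes and their doses in µg/mL differ. A difference between codes that is the same at low and high dose cancels here. Extract, dose and a code difference that varies with dose cannot be told apart in this difference of changes.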

How the results depend on the processing

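Among recomputed counts of called members 405 stayed within 1.5 times the reported count and 63 did not, and among recomputed values of single members 760 kept their side of the threshold, 52 no longer passed and 0 changed direction. With only the libraries compared in the fit, which leaves fewer samples to estimate the spread, counts were 18 for Aconiti high against low, 9 for Aconiti high against medium, 9 for the difference between Aconiti and Yijung, 9 for Aconiti medium, 6 for Cimicifugae high, 2 for Bupleuri high, 1 for Yijung medium, and 0 for Yijung high, Yijung high against low and Yijung against Banhasasim. Without the low-count filter, which raises the number of genes tested, they were 12 for the difference between extracts, 1 for Aconiti medium, and 0 for Cimicifugae high, Yijung high, Yijung medium, Yijung high against low, Cimicifugae against Citri and Yijung against Banhasasim.

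With length balance as a covariate the counts were 34 for Aconiti high against medium, 33 for the difference between extracts, 11 for Aconiti medium, 8 for Yijung high, 8 for Yijung medium, 4 for Cimicifugae high, 3 for Yijung high against low, 2 for Bupleuri high and 1 for Cimicifugae high against low. Without Citri medium replicate 1 in the shared fit they were 9 for Aconiti medium, 3 for Cimicifugae high, 2 for Bupleuri high and 2 for Yijung high against low. With total counts alone, chosen after seeing the data, they were 32 for the difference between extracts, 20 for Aconiti medium, 1 for Bupleuri high and 0 for Yijung against Banhasasim. DESeq2 called 2 in Cimicifugae high, 2 in Bupleuri high, 2 in Yijung high against low and 1 in Cimicifugae high against low. Removing mitochondrial genes gave 1 for Bupleuri high and 2 for Yijung high against low, and RLE size factors gave 2 for the latter. The cause of these changes was not tested beyond the construction named.

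With each replicate left out in turn, counts ran from 26 to 30 for Aconiti high against vehicle, 2 to 4 for Aconiti medium, 0 to 10 for Citri medium, 1 to 4 for Yijung high, 0 to 2 for Yijung high against low, 0 to 2 for Yijung against Banhasasim and 0 to 0 for Cimicifugae against Citri. By the rule that every same-numbered pair correlate above 0.1, replicate numbers were not taken to pair the samples. Deviations from group means had a median correlation of 0.009 between samples of the same number (513 pairs) and -0.005 between samples of different numbers (1026 pairs). Within sample codes 5, 6 and 7 the same-number medians were 0.016, 0 and 0.044, and within Aconiti the median was 0.212 for the same number (6 of 9 pairs above 0.1, lowest -0.139) and -0.151 for different numbers. The replicate block gave 2 for Yijung high against low and left every other count within 1.5 times. A replicate block within each sample code, chosen after seeing the data, gave 2 for Yijung high against low, 30 for Aconiti high against low, 25 for high against medium, 29 against Bupleuri and 23 for the difference between extracts, and left the other counts without vehicle as reported. CCNE2 values in Aconiti high rested on 58 to 89 counts per library.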
